A study of Homo sapiens with 6 samples.

Results

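Genes for Wnt ligands, Frizzled receptors and co-receptors were followed in a human prostate cancer line, C4-2, a subline of LNCaP, that had been made resistant to the androgen receptor antagonist enzalutamide (labelled Enz-R), and in its parental line. The genes were chosen by symbol: all protein-coding WNT genes, FZD1 to FZD10, and 18 named genes for co-receptors, receptor turnover, ligand secretion, secreted inhibitors and nuclear factors. That gave 47 genes of the 59565 loci in the count table. The Enz-R group held 3 libraries and the parental group 3 libraries, all from RNA-seq with 150 bp paired-end reads. The labels give no dose and do not tell whether enzalutamide was present at collection or whether the resistant line is 1 clone.

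Wnt proteins are secreted lipid-modified ligands. They need the acyltransferase PORCN and the carrier WLS to leave the cell, and they bind Frizzled receptors together with LRP5 or LRP6, which stabilises beta-catenin and lets it act with the TCF and LEF factors on target genes. Some ligands, WNT5A above all, more often act without beta-catenin, through receptors such as ROR2, ROR1, RYK and PTK7, on cell polarity and movement. RNF43 and ZNRF3 are membrane ubiquitin ligases that remove Frizzled from the cell surface, and the R-spondin receptors LGR4 and LGR5 restrain them. In the prostate, Wnt signals take part in bud formation during development, and WNT5A and other ligands have been studied in castration-resistant cancer.

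Library totals were 15673404 to 23351394 counts in Enz-R and 19400321 to 28247038 counts in parental cells. Mitochondrially encoded genes took 14.5% to 15.5% of the counts in Enz-R libraries and 8.78% to 11.3% in parental libraries. Their part in the results below was not tested beyond leaving those genes out, which gave the same number of called Wnt genes. The markers of prostate luminal epithelium were present, with counts for all 8, 3 of them higher and 4 lower in Enz-R, and a summed level of 5004 to 5252 CPM (counts per 1000000 counts of the scaled library) in Enz-R and 7845 to 8381 CPM in parental libraries. Of the other marker lists, the 6 leukocyte markers summed to 1.29 to 1.83 CPM in Enz-R and 2.50 to 2.89 CPM in parental libraries with HBB at 0. The 5 endothelial markers summed to 4.71 to 6.02 CPM in Enz-R and 9.64 to 12.0 CPM in parental libraries. Of these, 3 passed a filter on low counts, with 2 lower and none higher, and 1 had groups that did not overlap. The 7 fibroblast markers summed to 46.1 to 55.4 CPM in Enz-R and 57.2 to 60.6 CPM in parental libraries, with 4 of them under 1 CPM in both groups, and the 4 basal markers to 3.33 to 3.43 CPM in Enz-R and 3.66 to 4.73 CPM in parental libraries. In the leukocyte, fibroblast and basal lists 1 marker each was lower and none higher. What these markers have to do with the results was not tested. No label names separate cultures, and p-values therefore reflect the spread among these libraries alone, which may be technical. In bulk RNA, fewer cells with a transcript and less transcript per cell cannot be told apart.

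The comparison asks how the resistant line's set of Wnt ligands and receptors differs from that of the parental line. WNT5A was 15.5-fold higher in Enz-R, and the ligand genes WNT10A and WNT6 and the co-receptor gene ROR2 were also higher. WNT3, WNT4, WNT9A, WNT8B and WNT7B were lower, as were 6 Frizzled genes, LRP5, LRP6, RYK, PTK7, LGR4, ZNRF3, WLS and AXIN2. FZD7, FZD8, FZD2, RNF43, PORCN, LEF1 and TCF7L2 were higher. Of the 47 genes, 34 passed the filter on low counts. In the quasi-likelihood test of edgeR, with p adjusted by Benjamini-Hochberg over all 19029 tested genes, 11 of these were higher in Enz-R, 19 lower and 4 not called at the 0.05 threshold. The share of tested genes called in either direction was 64.8% over the whole table, with 32.4% higher and 32.3% lower, and 88.2% for the Wnt genes. The groups did not overlap for 30 of the 34 Wnt genes, where 68.9% of all tested genes were so separated. The median log2 fold change was -0.29 over the 34 Wnt genes and 0.01 over all tested genes. ROR2 reached the filter's cutoff in all Enz-R but not all parental libraries, and WNT4 in all parental but not all Enz-R libraries. Their passing thus leaned on the group where they were higher, which limits what their calls show.

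**Figure D1:**
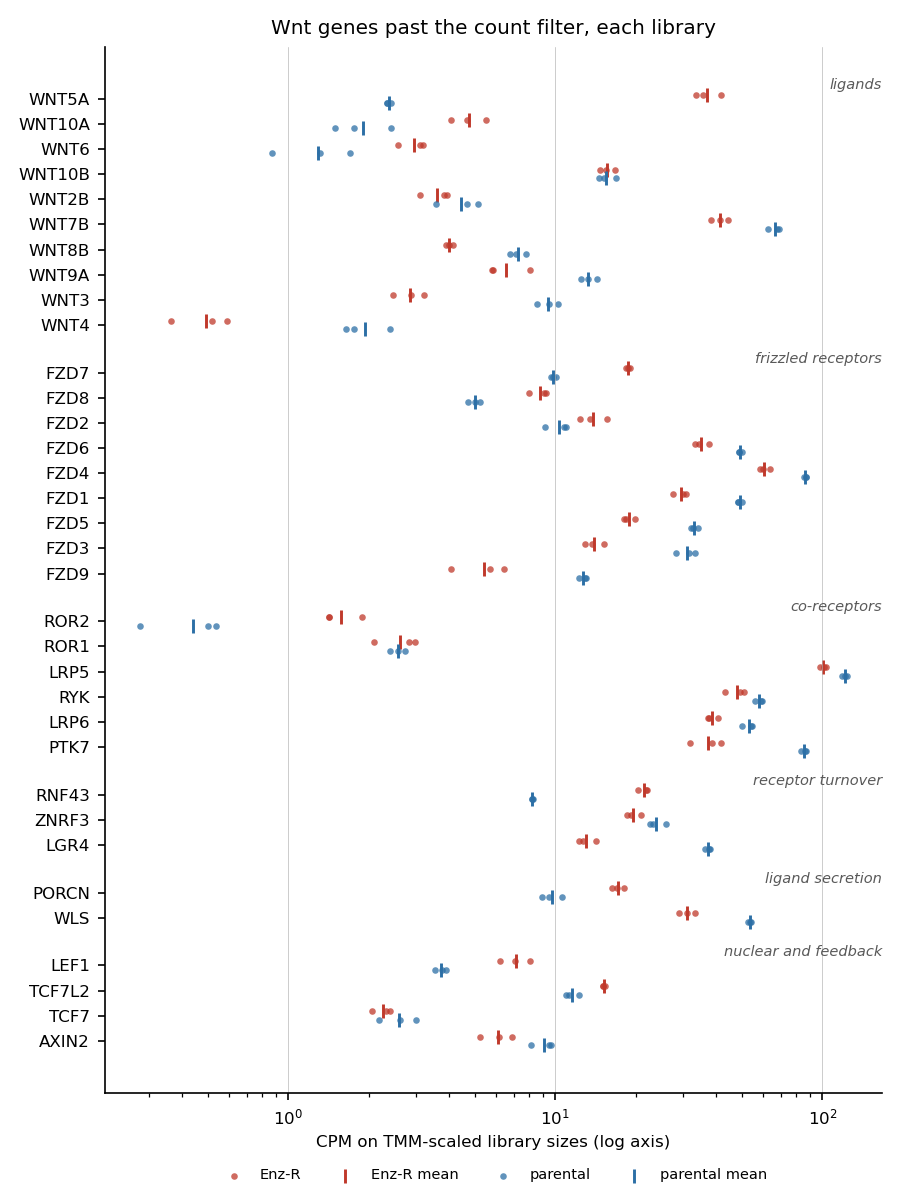
Level of each of the 34 tested Wnt genes in every library, in CPM on TMM-scaled library sizes (log axis), with Enz-R points above parental points and ticks at the group means. WNT5A lies between 33.5 and 41.6 CPM in Enz-R and between 2.34 and 2.44 CPM in parental libraries, the widest separation on the plot.

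Values below are in CPM on library sizes scaled by the trimmed mean of M-values (TMM), each mean ± SD is over n = 3 libraries, and fold changes are Enz-R over parental on the log2 scale ± SE. The SE was computed from the F value of each gene and may be too narrow where counts are few.

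Among the ligands, WNT5A (ENSG00000114251, GRCh38 chromosome 3, 55465715 to 55490539), which acts mostly outside the beta-catenin route, had 41.6, 33.5 and 35.9 CPM in the Enz-R libraries, against 2.44, 2.35 and 2.34 CPM in the parental libraries. All Enz-R libraries were far above all parental ones. The means were 37.0 ± 4.16 CPM in Enz-R and 2.38 ± 0.0517 CPM in parental cells, a log2 fold change of 3.96 ± 0.12 (edgeR adjusted p = 6.42e-13). Only 1 other protein-coding gene within 1 Mb was tested, ERC2, whose log2 fold change was 2.02, so the neighbourhood could not be described further.

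WNT6 and WNT10A are neighbouring genes on chromosome 2, separated by 6129 bases with no protein-coding gene between them. WNT10A, a ligand needed for skin and tooth development, had 4.66, 4.06 and 5.50 CPM in Enz-R libraries and 2.44, 1.50 and 1.76 CPM in parental libraries (1.28 ± 0.21, edgeR adjusted p = 5.60e-05). WNT6 had 3.20, 2.59 and 3.11 CPM in Enz-R libraries and 0.871, 1.70 and 1.32 CPM in parental libraries (1.23 ± 0.24, edgeR adjusted p = 0.000415). Both were higher in every Enz-R library than in any parental one, at low levels and by similar amounts. The 39 other tested protein-coding genes within 1 Mb had a median log2 fold change of -0.04, with 11 higher and 15 lower.

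Falls were found in 5 ligand genes. WNT3 (chromosome 17, 46762506 to 46833154), a beta-catenin-activating ligand, had 2.88, 3.24 and 2.46 CPM in Enz-R libraries and 9.51, 8.56 and 10.2 CPM in parental libraries. It was 3.28-fold lower in Enz-R with groups far apart (-1.72 ± 0.15, edgeR adjusted p = 1.08e-07). WNT4 (chromosome 1, 22117305 to 22143969), known for its part in female reproductive tract and kidney development, had 0.365, 0.588 and 0.518 CPM in Enz-R libraries and 2.40, 1.65 and 1.76 CPM in parental libraries, resting on 26 counts in Enz-R and 138 in parental cells (-2.02 ± 0.30, edgeR adjusted p = 3.06e-05). All 13 of its tested protein-coding neighbours within 1 Mb were also lower, with a median of -1.03, so the fall of WNT4 stands among lowered neighbours on chromosome 1. WNT3 stood apart from its own, since its 17 neighbours had a median of 0.35 and the lowest of them was at -0.75.

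WNT7B, a ligand of epithelia, had 38.3, 44.4 and 41.5 CPM in Enz-R libraries and 68.7, 62.6 and 67.7 CPM in parental libraries (-0.68 ± 0.07, edgeR adjusted p = 6.74e-07). It was the ligand gene with the highest level per kilobase in both groups. WNT9A averaged 6.56 ± 1.30 CPM in Enz-R and 13.3 ± 0.917 CPM in parental cells (-1.02 ± 0.14), and WNT8B 4.02 ± 0.137 CPM in Enz-R and 7.23 ± 0.527 CPM in parental cells (-0.85 ± 0.14). WNT10B, a beta-catenin-activating ligand, had 14.8, 16.7 and 15.5 CPM in Enz-R libraries and 15.2, 14.5 and 16.8 CPM in parental libraries. Its groups overlapped, with a value of 0.01 ± 0.10 (edgeR adjusted p = 0.919). WNT2B had 3.93, 3.82 and 3.11 CPM in Enz-R libraries and 5.12, 4.66 and 3.56 CPM in parental libraries, which overlapped (-0.30 ± 0.18, edgeR adjusted p = 0.153). It passed the threshold without parental replicate 3 (-0.44, edgeR adjusted p = 0.0496). Its exons overlap those of ST7L on the other strand over 21.2% of their length, and the counting is not stated to use strand.

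The other 9 ligand genes were below the filter. WNT5B had 9 counts over the Enz-R group and 16 over the parental group, WNT11 had 8 in Enz-R and 10 in parental cells, WNT7A 7 in each group, and WNT3A 5 in Enz-R and 4 in parental cells. WNT1, WNT2, WNT8A, WNT9B and WNT16 had 0 to 4 counts per group. These levels are near the limit of detection at this depth, so no difference could be read. WNT5B, the closest relative of WNT5A, was thus barely counted in either line. Of the 4 pairs of adjacent ligand genes, WNT6 and WNT10A both rose, while in the pairs WNT3 and WNT9B (46 bases apart), WNT10B and WNT1 (6689 bases) and WNT9A and WNT3A (59152 bases) only the first passed the filter.

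To compare levels between genes, CPM was divided by the length of each gene's merged exons in kilobases. Merged exons can be longer than the transcripts in use, so orders and shares between genes are approximate. On this per-length scale the 19 ligand genes summed to 26.8, 27.7 and 26.9 CPM per kb in Enz-R libraries and 31.3, 29.4 and 31.2 CPM per kb in parental libraries. The sums were lower in each Enz-R library than in any parental one, and the make-up of the sum differed as well. WNT5A held 18.5% ± 2.35 of the ligand sum in Enz-R and 1.05% ± 0.0337 in parental cells. WNT7B held 30.2% ± 1.73 in Enz-R and 42.9% ± 0.656 in parental cells, WNT3 2.43% ± 0.299 in Enz-R and 7.10% ± 0.419 in parental cells, and WNT10B 22.0% ± 0.998 in Enz-R and 19.3% ± 1.12 in parental cells. In Enz-R the order of levels per length was WNT7B, WNT10B and WNT5A, then WNT8B, WNT6, WNT9A and WNT10A, and WNT10B and WNT5A overlapped between libraries, as did each neighbouring pair from WNT8B to WNT10A. In parental cells it was WNT7B, WNT10B, WNT8B, WNT9A and WNT3, of which WNT8B and WNT9A overlapped. WNT5A ranked 10 there, and its libraries overlapped those of WNT2B, the gene just above it.

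**Figure D2:**
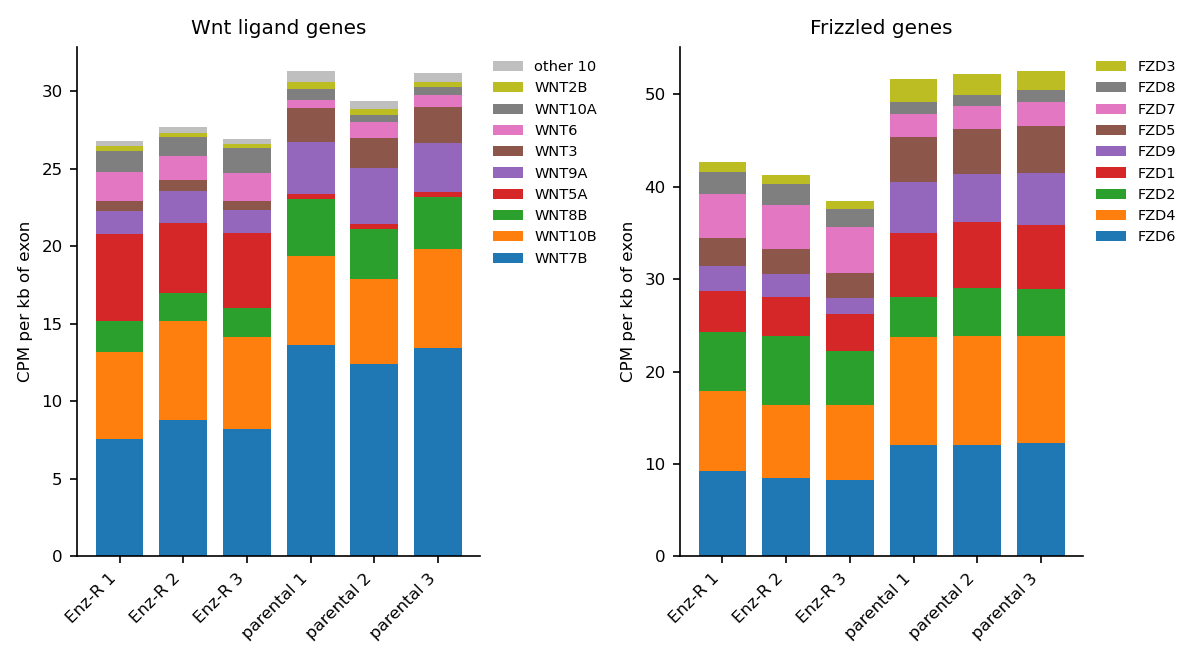
Level per kilobase of exon in each library, stacked by gene, for the 19 Wnt ligand genes (left) and the Frizzled genes (right), with Enz-R libraries left of parental libraries. WNT5A makes up 18.5% of the ligand sum in Enz-R and 1.05% in parental cells, and the Frizzled sum is 38.5 to 42.7 CPM per kb in Enz-R and 51.7 to 52.5 CPM per kb in parental cells.

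Of the 10 Frizzled genes 9 were tested, and each of these was called, 3 higher and 6 lower in Enz-R. Over all tested genes 64.8% were called. FZD7, a receptor for several Wnt ligands, had 18.7, 18.4 and 19.1 CPM in Enz-R libraries and 9.64, 9.77 and 10.1 CPM in parental libraries (0.93 ± 0.09, edgeR adjusted p = 5.00e-07). FZD8 had 9.23, 9.06 and 7.96 CPM in Enz-R libraries and 5.22, 4.71 and 5.03 CPM in parental libraries (0.81 ± 0.13, edgeR adjusted p = 5.78e-05). FZD2, a receptor for WNT5A, had 13.5, 15.6 and 12.4 CPM in Enz-R libraries and 9.12, 11.0 and 10.8 CPM in parental libraries, a smaller rise of 0.43 ± 0.12 (edgeR adjusted p = 0.00501). In these genes no Enz-R library fell to the parental range. FZD7 and FZD2 are close in sequence to FZD1, so reads in shared stretches may be uncertain.

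Of the 6 lower Frizzled genes, FZD9 (chromosome 7, 73433783 to 73436120) fell most. It had 6.44, 5.71 and 4.08 CPM in Enz-R libraries and 13.0, 12.2 and 13.0 CPM in parental libraries (-1.22 ± 0.14, edgeR adjusted p = 2.59e-06). FZD3, which is needed for axon guidance and planar polarity, averaged 14.0 ± 1.12 CPM in Enz-R and 31.2 ± 2.56 CPM in parental cells (-1.16 ± 0.09). The falls of FZD5 (-0.81 ± 0.08), FZD1 (-0.73 ± 0.07), FZD4 (-0.51 ± 0.06) and FZD6 (-0.48 ± 0.07) were each under 2-fold and had groups that did not overlap. FZD4, the receptor for norrin, shares 18.9% of its exon length with PRSS23 on the other strand, which rose by 1.41 ± 0.14. FZD10 had 0 counts in all 6 libraries.

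Per length, the Frizzled genes summed to 42.7, 41.3 and 38.5 CPM per kb in Enz-R libraries and 51.7, 52.2 and 52.5 CPM per kb in parental libraries. FZD6 and FZD4 had the highest levels per length in both groups, and their libraries overlapped in Enz-R. FZD2 ranked 3 in Enz-R and 6 in parental cells, and FZD7 ranked 4 in Enz-R and 7 in parental cells. FZD9 ranked 7 in Enz-R and 4 in parental cells. These ranks are not all firm, since libraries of FZD2 and FZD5 overlapped in parental cells, and in Enz-R those of FZD9 overlapped with both FZD5 and FZD8. FZD2 and FZD7 together with FZD8 were the 3 with a larger share of the sum in Enz-R: FZD2 held 16.0% ± 1.60 in Enz-R and 9.35% ± 0.858 in parental cells, FZD7 11.9% ± 0.812 in Enz-R and 4.88% ± 0.0693 in parental cells, and FZD8 5.31% ± 0.164 in Enz-R and 2.37% ± 0.136 in parental cells.

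Among the co-receptors, ROR2, a receptor tyrosine kinase that binds WNT5A, had 1.42, 1.88 and 1.42 CPM in Enz-R libraries and 0.279, 0.501 and 0.537 CPM in parental libraries. The groups did not overlap, although the level stayed under 2 CPM and rested on 85 counts in Enz-R and 29 in parental cells (1.88 ± 0.32, edgeR adjusted p = 0.000106). Its relative ROR1 had 2.10, 2.82 and 2.98 CPM in Enz-R libraries and 2.58, 2.40 and 2.73 CPM in parental libraries, which overlapped (0.02 ± 0.20, edgeR adjusted p = 0.945). PTK7, a pseudokinase of the planar polarity route, fell to 32.0, 41.6 and 38.8 CPM in Enz-R libraries, against 86.8, 86.4 and 83.0 CPM in parental libraries (-1.20 ± 0.08, edgeR adjusted p = 8.22e-09). LRP5 averaged 101 ± 2.55 CPM in Enz-R and 121 ± 2.23 CPM in parental cells (-0.27 ± 0.06), and LRP6 38.6 ± 1.94 CPM in Enz-R and 52.9 ± 2.54 CPM in parental cells (-0.45 ± 0.07). Both beta-catenin co-receptors were thus lower in every Enz-R library than in any parental one. RYK, an atypical kinase receptor, averaged 47.9 ± 3.97 CPM in Enz-R and 58.0 ± 1.88 CPM in parental cells (-0.28 ± 0.07, edgeR adjusted p = 0.00290). Per length, LRP5 was the highest of the 6 co-receptor genes, with 16.3 ± 0.414 CPM per kb in Enz-R and 19.7 ± 0.361 CPM per kb in parental cells. ROR2 was the lowest, with 0.271 ± 0.0459 CPM per kb in Enz-R and 0.0754 ± 0.0240 CPM per kb in parental cells, a 3.67-fold difference on the fitted scale. ROR1 was close to it in Enz-R, with 0.392 ± 0.0696 CPM per kb in Enz-R and 0.383 ± 0.0245 CPM per kb in parental cells, and the Enz-R libraries of the 2 genes overlapped.

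**Figure D3:**
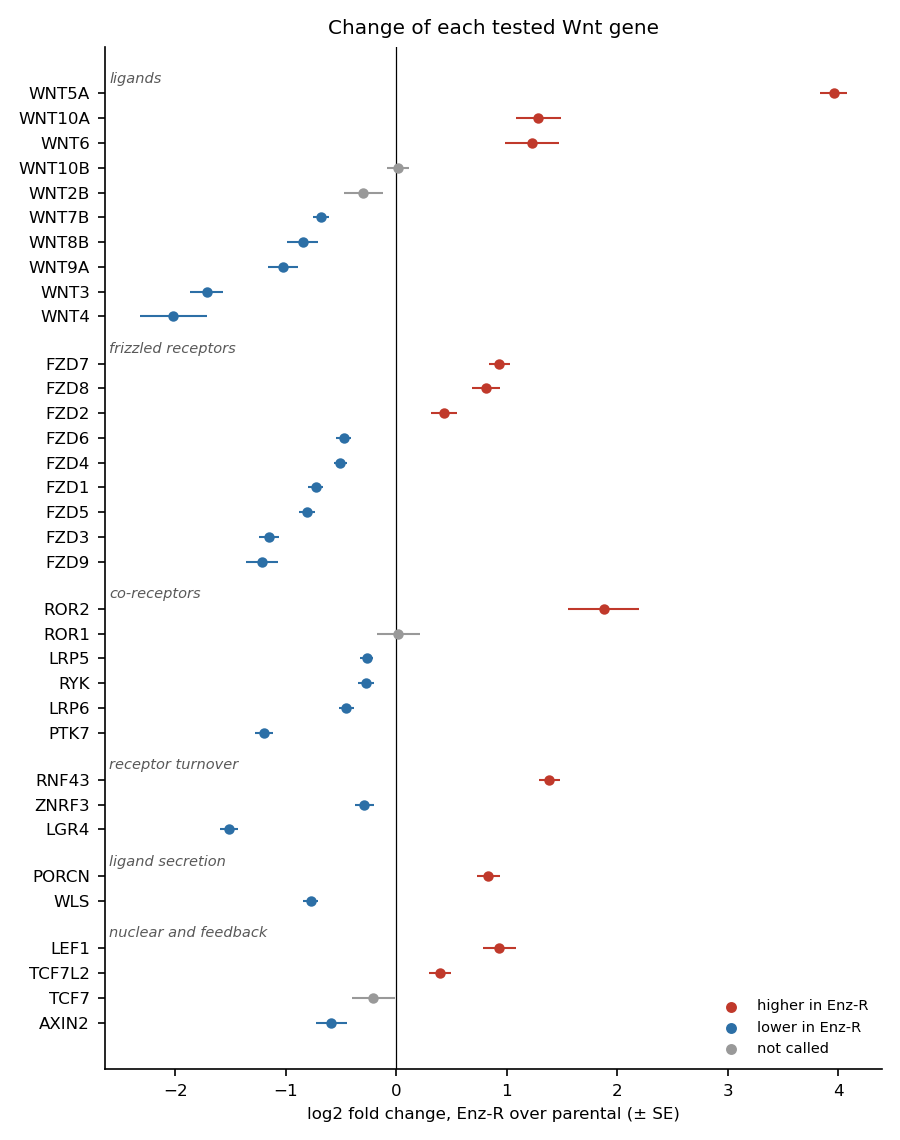
Log2 fold change of Enz-R over parental ± SE for each of the 34 tested Wnt genes, grouped by role and coloured by the call at adjusted p under 0.05 (edgeR). The values run from -2.02 for WNT4 to 3.96 for WNT5A, and every role with a tested gene holds both higher and lower genes.

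Genes for receptor turnover went in opposite directions. RNF43 (chromosome 17, 58352500 to 58417595), a ligase that clears Frizzled and is itself a beta-catenin target in the intestine, had 22.0, 21.8 and 20.4 CPM in Enz-R libraries and 8.29, 8.16 and 8.20 CPM in parental libraries (1.38 ± 0.09, edgeR adjusted p = 7.81e-09). Its paralog ZNRF3 averaged 19.6 ± 1.26 CPM in Enz-R and 23.9 ± 1.80 CPM in parental cells (-0.29 ± 0.09, edgeR adjusted p = 0.00852), and that call was lost without parental replicate 3 (-0.24, edgeR adjusted p = 0.0528). LGR4, a receptor for R-spondins, had 12.7, 12.2 and 14.2 CPM in Enz-R libraries and 36.2, 37.6 and 38.1 CPM in parental libraries, and was 2.86-fold lower (-1.52 ± 0.08, edgeR adjusted p = 4.65e-10). RNF43 was the ligase gene with the lower level of the pair in parental cells per length, at 2.86 ± 0.114 CPM per kb in Enz-R and 1.09 ± 0.00846 CPM per kb in parental cells, where ZNRF3 had 2.81 ± 0.181 CPM per kb in Enz-R and 3.43 ± 0.258 CPM per kb in parental cells. LGR5, an intestinal stem cell marker, had 3 counts in Enz-R and 3 in parental cells. The count of RNF43 is uncertain, and so are its level per length and its order against ZNRF3. Of its exon length, 57.6% is shared with a read-through gene (ENSG00000285897, 0.775 ± 0.380 CPM in Enz-R and 0.685 ± 0.185 CPM in parental cells). A further overlap of 20.3% is with TSPOAP1-AS1 on the other strand (3.52 ± 0.347 CPM in Enz-R and 1.60 ± 0.202 CPM in parental cells).

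The genes for ligand secretion also moved apart. PORCN, the acyltransferase that lipidates Wnt proteins, had 18.1, 17.1 and 16.3 CPM in Enz-R libraries and 8.91, 9.52 and 10.6 CPM in parental libraries (0.83 ± 0.11, edgeR adjusted p = 5.72e-06). WLS, the carrier that takes the lipidated ligand to the cell surface, had 33.3, 31.1 and 29.1 CPM in Enz-R libraries and 54.2, 52.5 and 53.5 CPM in parental libraries (-0.77 ± 0.07, edgeR adjusted p = 1.17e-07). The neighbours of PORCN on chromosome X moved with it: of 39 tested protein-coding genes within 1 Mb, 34 were higher and 1 lower, with a median of 0.85. WLS had 5 such neighbours, 1 higher and 3 lower, with a median of -0.27.

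Both secreted inhibitors were near the floor. DKK1, which blocks LRP5 and LRP6, had 6, 9 and 4 counts in Enz-R libraries and 1, 2 and 1 counts in parental libraries, a ratio of 6.05 (95% exact counting interval 2.01 to 24.4). SFRP1, which binds Wnt proteins outside the cell, had 5, 13 and 10 counts in Enz-R libraries and 6, 2 and 4 counts in parental libraries, a ratio of 2.97 (interval 1.46 to 6.41). The intervals cover counting error only. Each was below the count filter. With no filter, edgeR called both higher (edgeR adjusted p = 0.00826 for DKK1 and 0.0181 for SFRP1), and DESeq2 gave adjusted p = 0.0487 for DKK1 and 0.0866 for SFRP1. The unfiltered fit also gave a far smaller value for WNT5A (edgeR adjusted p = 1.49e-212, against 6.42e-13 with the filter). Its p-values may therefore be too small, above all at so few counts.

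AXIN2, a scaffold of the destruction complex and a general beta-catenin target, had 5.21, 6.88 and 6.15 CPM in Enz-R libraries and 9.61, 8.11 and 9.47 CPM in parental libraries (-0.59 ± 0.14, edgeR adjusted p = 0.00160). LEF1, a DNA-binding partner of beta-catenin that is also one of its targets in several tissues, went the other way, with 8.04, 7.06 and 6.21 CPM in Enz-R libraries and 3.76, 3.56 and 3.90 CPM in parental libraries (0.93 ± 0.15, edgeR adjusted p = 5.27e-05). TCF7L2 was higher by a small amount, at 15.2 ± 0.124 CPM in Enz-R and 11.5 ± 0.696 CPM in parental cells (0.40 ± 0.10, edgeR adjusted p = 0.00237). TCF7 averaged 2.27 ± 0.187 CPM in Enz-R and 2.60 ± 0.404 CPM in parental cells and overlapped between the groups (-0.21 ± 0.20, edgeR adjusted p = 0.372). Per length, TCF7L2 had the highest level of these 3 factors, with 2.25 ± 0.0184 CPM per kb in Enz-R and 1.71 ± 0.103 CPM per kb in parental cells. LEF1 followed with 1.33 ± 0.171 CPM per kb in Enz-R and 0.698 ± 0.0327 CPM per kb in parental cells, and TCF7 with 0.225 ± 0.0185 CPM per kb in Enz-R and 0.259 ± 0.0402 CPM per kb in parental cells. AXIN2 shares 25.2% of its exon length with an unnamed gene on the same strand (ENSG00000266076), which had at most 0.0216 CPM as a group mean.

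To show the DNA next to the genes that changed most, the 250 bases before each RefSeq gene start (GRCh38.p14) were read for the 34 Wnt genes that matched by symbol. AXIN2, FZD10, FZD2, FZD3, FZD6, FZD7, LGR5, LRP6, SFRP1, WNT10B, WNT11, WNT7B and ZNRF3 did not match. These windows are rich in G and C, with a median of 70.8% against 58.0% over 27305 promoters. A core TCF/LEF motif, CTTTGA on either strand, was in 1 of the 34 windows (DKK1), or 2.94%, against 11.4% of all promoters. The sequence AGAACA, which forms one side of the androgen response element, was in 4 (LEF1, PORCN, RNF43 and WNT8B), or 11.8%, against 12.4% of all promoters. A GC box, GGGCGG on either strand, was in 26, or 76.5%, against 42.3%. The full promoter set was neither limited to protein-coding genes nor matched for G and C, so these shares compare unlike sets. The 3 motifs share no run of letters that would make one a part of another. A match is a description of letters, and many Wnt genes have further starts outside these windows. The 3 largest rises and 3 largest falls with at least 5 CPM in a group were considered for printing. Of these, RNF43, WNT3 and FZD9 are shown because at least 150 of their 250 bases lie outside annotated exons. Only that stretch of each searched window is given, 5′ to 3′ on the gene's strand, with GC boxes in capitals.
RNF43, chr17:58417596-58417784, minus strand: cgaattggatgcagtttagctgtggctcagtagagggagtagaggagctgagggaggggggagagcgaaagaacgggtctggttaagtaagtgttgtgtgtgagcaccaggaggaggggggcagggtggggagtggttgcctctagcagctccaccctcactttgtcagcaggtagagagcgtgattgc
WNT3, chr17:46818761-46818942, minus strand: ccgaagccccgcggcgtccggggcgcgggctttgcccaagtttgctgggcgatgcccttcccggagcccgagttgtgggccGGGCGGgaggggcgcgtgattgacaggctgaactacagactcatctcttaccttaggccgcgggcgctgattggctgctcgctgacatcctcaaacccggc
FZD9, chr7:73433528-73433777, plus strand: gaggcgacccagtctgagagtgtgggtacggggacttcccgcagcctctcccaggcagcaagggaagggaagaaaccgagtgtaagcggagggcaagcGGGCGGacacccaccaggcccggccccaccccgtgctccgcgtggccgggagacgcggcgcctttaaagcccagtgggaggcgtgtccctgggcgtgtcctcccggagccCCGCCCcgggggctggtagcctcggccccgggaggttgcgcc

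The WNT3 stretch lies inside the span that GENCODE 29 gives for WNT3, before a RefSeq start downstream of the outermost one. The whole searched windows held 2 GC boxes for WNT3, 2 for FZD9 and 0 for RNF43. Windows with a GC box belonged to genes that were higher in Enz-R (WNT5A, WNT6, WNT10A, FZD8, ROR2, PORCN, LEF1 and TCF7L2) as well as to genes that were lower (WNT3, WNT4, WNT9A, FZD1, FZD4, FZD5, FZD9, LRP5, PTK7 and RYK).

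To show whether the genes around them moved too, each tested Wnt gene was set beside the other tested protein-coding genes within 1 Mb. Of 27 called Wnt genes with at least 5 such neighbours, 17 had the sign of their neighbours' median. The medians ran from -1.03 around WNT4 to 0.85 around PORCN. WNT3, WNT8B, FZD3, FZD4, ROR2, RNF43 and AXIN2 lay outside the whole range of their neighbours. For FZD4 and AXIN2 that range rests on 6 and 7 neighbours, and WNT8B at -0.85 was just below its lowest neighbour at -0.82. The matching shares over all tested genes were not worked out, so neither count is read as a trait of Wnt genes. ROR2 stood at 1.88 where 13 neighbours had a median of -0.35 and a maximum of 0.62, and RNF43 at 1.38 where 22 neighbours had a median of 0.12 and a maximum of 1.03. ROR2 reached the filter's cutoff in all Enz-R but not all parental libraries, which limits its comparison with its neighbours.

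**Figure D4:**
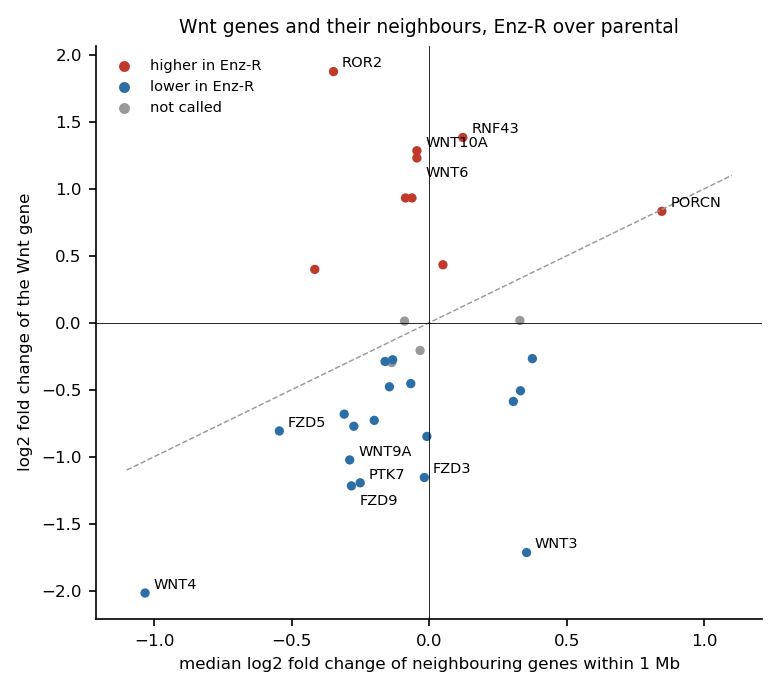
Log2 fold change of each tested Wnt gene with at least 5 tested protein-coding neighbours (vertical) against the median of those neighbours within 1 Mb (horizontal), Enz-R over parental, with the dashed line at equal values. PORCN lies on the line at 0.83 with a neighbour median of 0.85, WNT4 lies at -2.02 with a median of -1.03, and ROR2, RNF43 and WNT3 lie far from their neighbours. ROR2 reached the count filter's cutoff in all Enz-R but not all parental libraries, and WNT4 the reverse. The passing of both leaned on the group where they were higher.

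The remaining genes of the pathway were described from 5 lists, each to be read against the 64.8% called over all tested genes. FRZB, CXXC4, BMP4 and PRICKLE4, counted as higher, reached the filter's cutoff in all Enz-R but not all parental libraries. SP5, counted as lower, reached it in all parental but not all Enz-R libraries. The passing of these genes leaned on the group where they were higher, which limits what their calls show. Of 21 genes of the destruction complex and cytoplasm, all tested, 7 were higher and 11 lower (85.7% called), with a median of -0.18. CTNNB1, which encodes beta-catenin, averaged 125 ± 15.8 CPM in Enz-R and 262 ± 23.2 CPM in parental cells (-1.06 ± 0.09, edgeR adjusted p = 5.90e-08). CSNK1A1, the kinase that primes beta-catenin for degradation, averaged 38.7 ± 5.40 CPM in Enz-R and 154 ± 17.1 CPM in parental cells (-1.99 ± 0.10), although it shares exons with another gene on the same strand (ENSG00000230551). TNKS2, a tankyrase that marks axin for degradation, fell by 1.12 ± 0.06 on the log2 scale. The casein kinase genes CSNK1E (0.36 ± 0.06) and CSNK1D (0.29 ± 0.06) and the scaffold gene DVL1 (0.34 ± 0.06) rose by small amounts. CSNK1E shares exons with the read-through gene TPTEP2-CSNK1E, so its count is uncertain, and CSNK1D shares 1856 of its 11024 exon bases with genes on the other strand.

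Of 14 nuclear cofactor genes, 12 were tested, 3 were higher and 7 lower (83.3% called), with a median of -0.30. BCL9L, which links beta-catenin to PYGO proteins, averaged 62.8 ± 12.2 CPM in Enz-R and 147 ± 2.57 CPM in parental cells (-1.23 ± 0.10). Of its 10470 exon bases, 4059 overlap CXCR5, MIR4492 and UPK2 on the other strand, so its count is uncertain without a stated strand setting. HBP1 and TLE5 overlap other-strand genes over smaller stretches. HBP1 (-0.72 ± 0.08) and the corepressor gene TLE3 (-0.67 ± 0.06) fell, whereas the corepressor genes TLE2 (0.83 ± 0.07) and TLE1 (0.59 ± 0.08) rose. The related gene TLE5 rose as well (0.56 ± 0.06). The Groucho-type corepressor genes TLE1, TLE2 and TLE3 thus went both ways.

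Of 18 beta-catenin target genes, 17 were tested, 6 were higher and 6 lower, with a median of -0.02. The share called, 70.6%, was near that of all tested genes. TNFRSF19, a TNF receptor family gene, averaged 6.50 ± 0.692 CPM in Enz-R and 185 ± 0.531 CPM in parental cells, a 28.3-fold fall (-4.82 ± 0.08, edgeR adjusted p = 1.67e-15). The ephrin receptor gene EPHB2 (-1.03 ± 0.11) and the nuclear receptor gene PPARD (-0.93 ± 0.06) also fell. EPHB2 lies within 1 Mb of WNT4, among the 13 neighbours that were all lower, with a median of -1.03. ID2, an inhibitor of basic helix-loop-helix factors, averaged 17.8 ± 1.52 CPM in Enz-R and 7.45 ± 0.927 CPM in parental cells (1.26 ± 0.12), and the Wnt feedback inhibitor gene NKD1 (0.73 ± 0.12) and the AP-1 gene JUN (0.42 ± 0.08) rose.

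Of 22 other secreted regulators, 9 were tested, 4 were higher and 2 lower, with a median of 0.47. The share called, 66.7%, was near that of all tested genes. RSPO4, an R-spondin, averaged 19.4 ± 2.07 CPM in Enz-R and 13.1 ± 0.434 CPM in parental cells (0.57 ± 0.10, edgeR adjusted p = 0.000138). The DKK receptor genes went apart, with KREMEN2, which overlaps PKMYT1 on the other strand, higher (0.52 ± 0.08) and KREMEN1 lower (-0.53 ± 0.07), and the glypican gene GPC3 was lower (-0.47 ± 0.10). Of 30 planar polarity and non-canonical genes, 28 were tested, 8 were higher and 12 lower, with a median of -0.14, and the share called, 71.4%, was again near that of all tested genes. The calcium-dependent kinase gene CAMK2D (0.88 ± 0.11), PRICKLE3 (0.70 ± 0.08) and the protein kinase C gene PRKCA (0.67 ± 0.12) rose. PRICKLE3 lies within 1 Mb of PORCN, among the 39 neighbours of which 34 were higher, with a median of 0.85. The NFAT factor genes NFATC3 (-1.25 ± 0.11) and NFATC4 (-0.88 ± 0.14) and the polarity cadherin gene CELSR1 (-0.82 ± 0.06) fell. NFATC3 shares exons with other genes on both strands, which leaves its count uncertain.

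**Figure D5:**
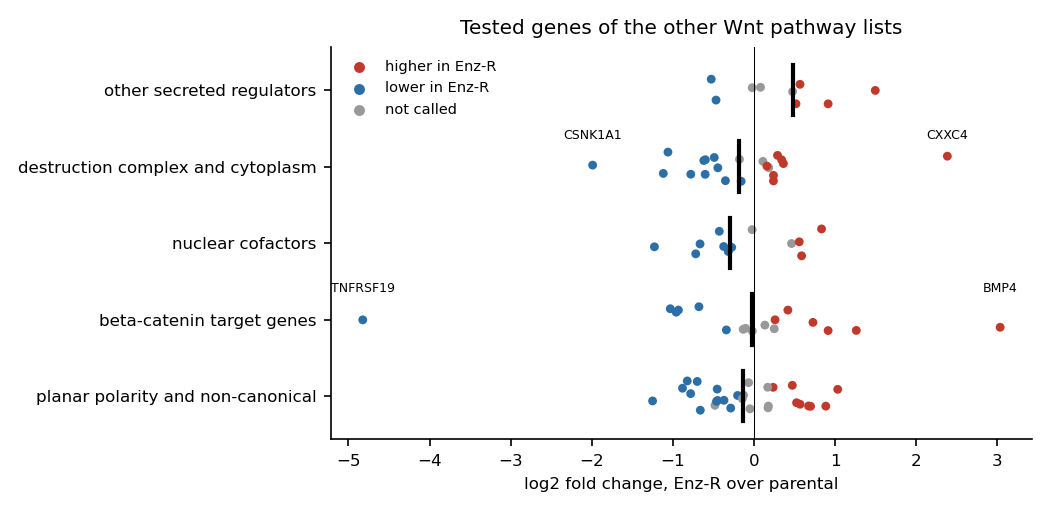
Log2 fold change of Enz-R over parental for each tested gene of the 5 other Wnt pathway lists, coloured by the call (edgeR, adjusted p under 0.05), with a black bar at each list's median and gene names where the value is far from 0. TNFRSF19 at -4.82 stands far to the left, BMP4 and CXXC4 at the right had under 5 CPM in each group, and the list medians lie between -0.30 and 0.47.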

How the data were processed

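Gene counts of 6 RNA-seq libraries were used, with groups from the labels. The count table deposited by the authors gives unnormalised whole numbers for each locus. The submitters' processing notes name HISAT2 and GRCh38. How reads were counted, on which annotation and with what strand setting is not stated in the labels or header. Identifiers were matched to GENCODE 29, and 889 of the 59565 loci are unannotated. Enz-R was compared with parental using R 4.3.3 and edgeR 4.0.16 (filterByExpr with a minimum count of 10, TMM, glmQLFit, glmQLFTest) on the whole table, with Benjamini-Hochberg adjustment and a threshold of 0.05. Chi-square per degree of freedom between replicates was 3.91 to 8.98, above counting error. The genes, lists and tests were chosen with earlier results of these data known. All 47 Wnt genes may be named. Of each other list, up to 3 risers and 3 fallers are named that were called, had non-overlapping groups and reached 5 CPM. Alternatives were DESeq2 1.42.0, limma-voom (limma 3.58.1), other scalings and filters, a replicate block and leaving out each library. Summaries and figures used Python 3.11.15, pandas 2.3.3, numpy 2.4.6, scipy 1.17.1 and matplotlib 3.10.9.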

Additional observations from a re-analysis of the deposited data

How the results depend on the processing

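The counts of called Wnt genes held within 1.5 times under all 14 alternatives. Leaving out 1 library at a time gave 11 to 12 higher and 19 lower Wnt genes, and 5629 to 6133 higher and 5813 to 6157 lower genes over the whole table. With no filter, 13 Wnt genes were higher. Of the 30 called Wnt genes, 29 kept their call under every alternative that gave a value, and none reversed. ZNRF3 was lost without parental replicate 3 (-0.24, edgeR adjusted p = 0.0528), and WNT2B was called without that library (-0.44, edgeR adjusted p = 0.0496). WNT10B, not called, turned negative without Enz-R replicate 2 (-0.03), without parental replicate 1 (-0.01) or replicate 2 (-0.0392), with total count scaling (-0.0820), with no filter (-0.0085) and in DESeq2 (-0.0019). Its values with 1 library left out ran from -0.0392 to 0.0648. ROR1, not called, turned negative without Enz-R replicate 2 (-0.04) or replicate 3 (-0.0724), without parental replicate 2 (-0.03), with total count scaling (-0.0758), with no filter (-0.0048) and in limma-voom (-0.0061). Its values with 1 library left out ran from -0.0724 to 0.175. The cause was not tested. Total count scaling moved the median of all genes to -0.08 and the higher share of calls to 42.3%, against 50.1%, with 11 Wnt genes higher and 19 lower. Same-numbered libraries of the groups deviated together with correlations of -0.0081 to 0.0493, and differently numbered ones with -0.0547 to 0.0470. These values cannot tell whether same-numbered libraries were handled together, and no label says so. The replicate block gave 11 higher and 19 lower Wnt genes and 6179 higher and 6158 lower genes in all. The 13 Wnt genes below the filter had few or no counts, and whether greater depth would change this was not tested.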
